A study of Mus musculus with 12 samples.

Results

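The genes of oxidative phosphorylation (OXPHOS) were followed in peak lists of Zic1/2 binding from cultured mouse cerebellar granule neurons. The set held 96 of the 21883 protein-coding genes on chromosomes 1 to 19, X and Y of the mm10 build. A gene was included when its symbol began with Nduf, Uqcr, Atp5 or Cox4 to Cox8, or was Sdha, Sdhb, Sdhc or Sdhd, so no measured value chose the members. A gene was counted as having a peak in a library when at least 1 bp of a peak lay on the gene or within 1 kb of it. On this definition 54 of the 96 genes had a Zic1/2 peak in all 12 libraries, 40 in 1 to 11 libraries and 2 in none.

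The OXPHOS genes encode the protein complexes of the inner mitochondrial membrane. Complexes I to IV pass electrons from NADH and succinate to oxygen and, apart from complex II, pump protons, and complex V (ATP synthase) uses the proton gradient to make ATP. Neurons depend on this ATP for ion pumping and synaptic transmission. Most subunits are nuclear genes with short, GC-rich promoters, and NRF1, ETS-family factors such as GABP, and YY1 are known to bind many of these promoters. The zinc finger proteins Zic1 and Zic2 regulate transcription in granule neurons and in the progenitors these come from.

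The assay was CUT&RUN. Its antibody, here one against the C-terminal end of Zic1/2, guides a nuclease that cuts the DNA next to the protein. The 4 groups were neurons cultured for 1 day (DIV1), 3 days (DIV3), 5 days (DIV5) or 7 days (DIV7), with 3 libraries each, which the series design calls biological replicates. The sources used here give no age, sex or strain of the mice. All cells grew in the same medium. Cytosine arabinoside, which kills dividing cells, was given at 1 uM on day 2, so the DIV1 neurons had not yet met it and the 3 later groups had. The antibody does not separate Zic1 from Zic2. In these pooled nuclei, fewer bound cells and less binding per cell cannot be told apart.

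Peak lists do not measure expression, so the cell type label could not be checked by RNA. Peaks lay in all 12 libraries at 9 of 11 marker genes of granule neurons, 3 of 5 of their progenitors, 2 of 5 of Purkinje cells, 1 of 4 of interneurons, 1 of 4 of oligodendrocytes, 0 of 4 of astroglia and 0 of 3 of microglia. The libraries held 65102 to 89417 peaks and 1.01 to 3.27 M reads in peaks. Totals per peak were whole multiples of 51 in 6 libraries (all of DIV1, the first replicate of DIV3, and the third replicates of DIV5 and DIV7) and of 50 in the other 6, which was read as the read length.

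Of the OXPHOS genes, 56.2% had a peak in all 12 libraries, beside 48.0% of all protein-coding genes, and 2.08% had none, beside 15.9%. The OXPHOS genes were short, with a median length of 7228 bp beside 17170 bp for all genes, so less sequence per gene could hold a peak. Within 1 kb of either gene end alone, the share with a peak in all 12 libraries was 51.04% of OXPHOS genes and 36.1% of all genes. The 80 genes of cytoplasmic ribosomal proteins, another group of short and broadly used genes, had a peak in all 12 libraries in 65% of cases. These shares are descriptions of the lists, and no test of the difference was made.

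The number of OXPHOS genes with a peak was 87, 86 and 87 in the DIV1 libraries, 87, 79 and 84 at DIV3, 90, 90 and 79 at DIV5, and 68, 86 and 72 at DIV7. Reads in peaks, in the same order, were 3.27, 2.90 and 2.71 M, 3.08, 2.08 and 2.34 M, 2.74, 2.01 and 1.67 M, and 1.01, 2.49 and 1.55 M. The 2 lowest counts of genes, 68 and 72, stood in the 2 libraries with the fewest reads, DIV7 replicates 1 and 3, while the deeper DIV7 replicate 2 held 86. The part of depth in the day-to-day counts was not tested. In the 9 libraries with the most reads, 71 OXPHOS genes (74.0%) and 54.7% of all genes had a peak in every one.

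**Figure D1:**
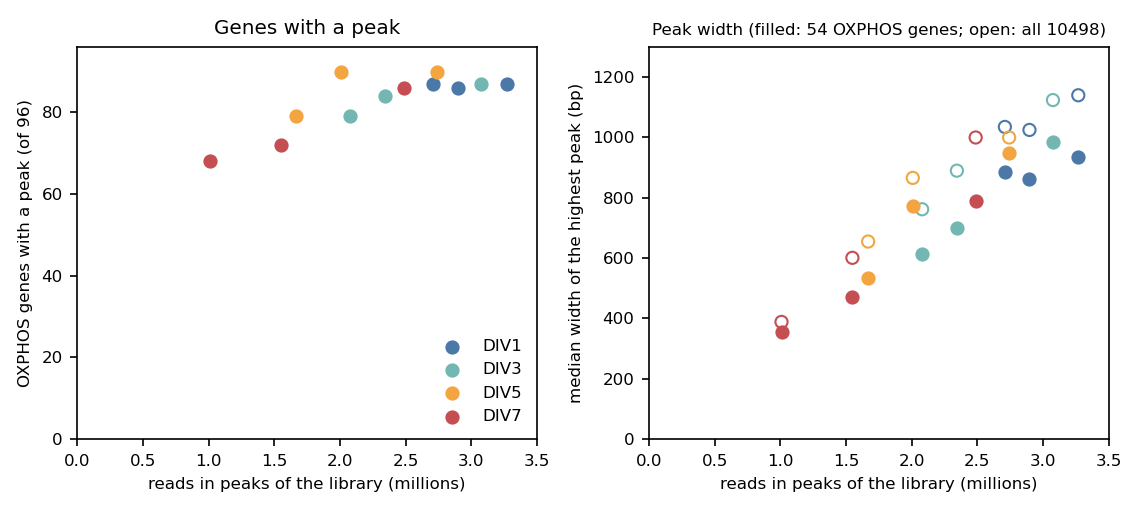
Left, OXPHOS genes with a peak (of 96) against the reads in peaks of each library (M). Right, median width (bp) of the highest peak of a gene against the same reads, filled for the 54 OXPHOS genes and open for all 10498 genes with a peak in all 12 libraries. Each point is a library, coloured by day. The 2 libraries with the fewest reads, both of DIV7, held 68 and 72 OXPHOS genes, and the widths were smallest in the same libraries.

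The promoters of 9 OXPHOS genes show the sequence around the listed start. It was under a peak in all 12 libraries at Ndufa11, Cox7a2l, Atp5g1, Ndufa3, Ndufv3 and Atp5j, and in none at Cox7a1, while the highest peak of Atp5d lay over 2 kb from the start in 5 libraries. They are the genes with the highest relative signal near a listed start (Ndufa11, Cox7a2l and Atp5g1), those with the trends described below (Ndufa3, Ndufv3 and Atp5d), a promoter shared with another gene (Atp5j), and 2 muscle isoforms with few peaks (Cox8b and Cox7a1). Each sequence, from RefSeq on GRCm38.p6 (the assembly of mm10), runs 5′ to 3′ on the strand of the gene, from 250 bases before the start to 50 after it. Capitals mark the matches to 5 short motifs searched on both strands.
Ndufa11: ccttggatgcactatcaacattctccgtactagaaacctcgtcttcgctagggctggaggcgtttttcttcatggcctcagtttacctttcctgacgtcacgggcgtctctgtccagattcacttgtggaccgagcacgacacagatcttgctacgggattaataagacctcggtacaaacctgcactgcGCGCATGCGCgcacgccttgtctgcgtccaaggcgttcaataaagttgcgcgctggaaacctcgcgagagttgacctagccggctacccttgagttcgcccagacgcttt
Ndufa3: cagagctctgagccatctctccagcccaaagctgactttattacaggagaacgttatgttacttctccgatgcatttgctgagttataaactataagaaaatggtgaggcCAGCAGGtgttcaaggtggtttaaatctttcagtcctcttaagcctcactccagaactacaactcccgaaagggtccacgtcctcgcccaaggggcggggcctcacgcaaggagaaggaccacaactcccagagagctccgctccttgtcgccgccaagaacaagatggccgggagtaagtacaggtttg
Ndufv3: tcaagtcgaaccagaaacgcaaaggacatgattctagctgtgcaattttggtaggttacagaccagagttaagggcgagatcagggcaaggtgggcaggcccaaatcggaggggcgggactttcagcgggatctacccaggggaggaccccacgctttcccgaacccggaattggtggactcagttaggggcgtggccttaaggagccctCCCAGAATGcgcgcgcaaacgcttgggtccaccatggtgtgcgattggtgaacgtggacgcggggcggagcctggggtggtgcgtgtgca
Cox7a2l: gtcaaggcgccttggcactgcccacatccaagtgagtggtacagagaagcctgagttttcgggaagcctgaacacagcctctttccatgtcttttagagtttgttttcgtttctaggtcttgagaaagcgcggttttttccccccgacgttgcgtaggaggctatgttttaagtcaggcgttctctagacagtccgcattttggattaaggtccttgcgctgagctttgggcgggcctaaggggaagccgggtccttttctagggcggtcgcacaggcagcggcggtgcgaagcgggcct
Atp5g1: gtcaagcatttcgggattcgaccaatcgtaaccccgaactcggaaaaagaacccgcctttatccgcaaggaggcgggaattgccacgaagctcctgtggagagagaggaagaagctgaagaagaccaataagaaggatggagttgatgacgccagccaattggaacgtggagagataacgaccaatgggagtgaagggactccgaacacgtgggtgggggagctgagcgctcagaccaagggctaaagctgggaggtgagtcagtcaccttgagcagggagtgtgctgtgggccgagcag
Atp5d: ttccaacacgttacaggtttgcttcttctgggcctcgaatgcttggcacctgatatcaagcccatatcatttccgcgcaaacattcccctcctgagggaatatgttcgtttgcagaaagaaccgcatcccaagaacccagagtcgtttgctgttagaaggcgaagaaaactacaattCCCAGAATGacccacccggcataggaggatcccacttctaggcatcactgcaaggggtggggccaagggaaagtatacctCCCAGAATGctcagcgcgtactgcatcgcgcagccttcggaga
Atp5j: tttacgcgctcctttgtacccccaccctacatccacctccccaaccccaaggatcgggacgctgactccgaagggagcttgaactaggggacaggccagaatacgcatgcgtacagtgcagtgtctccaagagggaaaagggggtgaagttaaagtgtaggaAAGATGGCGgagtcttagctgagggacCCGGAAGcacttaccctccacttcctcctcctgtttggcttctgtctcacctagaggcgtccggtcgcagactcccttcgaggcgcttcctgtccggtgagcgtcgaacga
Cox8b: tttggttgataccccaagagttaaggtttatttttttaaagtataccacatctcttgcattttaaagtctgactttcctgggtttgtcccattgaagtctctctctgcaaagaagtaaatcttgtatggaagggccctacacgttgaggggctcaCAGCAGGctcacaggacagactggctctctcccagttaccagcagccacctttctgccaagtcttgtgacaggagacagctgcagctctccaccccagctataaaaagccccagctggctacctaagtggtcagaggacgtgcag
Cox7a1: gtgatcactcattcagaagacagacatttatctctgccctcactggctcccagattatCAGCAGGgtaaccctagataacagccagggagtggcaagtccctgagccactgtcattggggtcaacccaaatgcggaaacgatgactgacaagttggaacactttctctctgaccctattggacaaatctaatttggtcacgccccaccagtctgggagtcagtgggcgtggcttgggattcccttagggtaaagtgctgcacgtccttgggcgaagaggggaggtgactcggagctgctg
The coordinates were Ndufa11 chr17:56717512-56717811 on the plus strand, Ndufa3 chr7:3617123-3617422 on the plus strand, Ndufv3 chr17:31519865-31520164 on the plus strand, Cox7a2l chr17:83514284-83514583 on the minus strand, Atp5g1 chr11:96075582-96075881 on the minus strand, Atp5d chr10:80142025-80142324 on the plus strand, Atp5j chr16:84834927-84835226 on the minus strand, Cox8b chr7:140900397-140900696 on the minus strand, Cox7a1 chr7:30183921-30184220 on the plus strand.

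Starts were listed for 78 of the 96 genes. The motifs were CAGCAGG (the core of the Zic motif), GCGCA followed directly by its reverse complement (NRF1), CCGGAAG (ETS family, which includes GABP), AAGATGGCG (YY1) and CCCAGAATG, a stretch of the ZNF143 motif that was added after the promoters had been seen; none of these contains another. The Zic core occurred in the promoters of 10 of the 78 OXPHOS genes (12.8%) and in 12.01% of those of 17491 genes. NRF1 letters occurred in 7 (8.97%, beside 1.47%), ETS letters in 19 (24.4%, beside 12.9%) and YY1 letters in 8 (10.3%, beside 2.14%). The share with a Zic core was thus close to that of all genes, while those of the 3 motifs of known OXPHOS regulators were higher; these are counts of letters, without a test. CCCAGAATG was found at Atp5d and Ndufv3 and nowhere else among the 78 (2.56%, beside 0.755%). Ndufa3, Cox8b and Cox7a1 carry a Zic core in the printed window and Atp5g1 and Cox7a2l do not, which says only that these letters are absent from those 300 bases.

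At the OXPHOS genes with peaks in all libraries, the signal lay close to the start. For 45 of the 54 genes with a listed start, the distance of the maximum from the nearest start, taken as the median over libraries, had a median of 102.5 bp, beside 198.5 bp for 8483 genes treated alike. It lay within 500 bp in 38 of the 45 (84.4%, beside 70.4%). The start itself was under a peak in all 12 libraries in 23 of 78 genes (29.5%, beside 20.7%) and in no library in 3, Ndufb4b, Cox7a1 and Cox7b2 (3.85%, beside 36.8%). In 4 of the 45 it was more than 1 kb. Ndufs4, a complex I subunit whose loss causes Leigh-like encephalopathy in mice, had the maximum 36420 bp into the gene at chr13:114351376-114352018 (median peak). At the assembly factor Ndufaf2 the highest peak differed between libraries, lying between -170.5 and 40.5 bp of the start in 6 and 62757 to 98322 bp from it in the other 6. The peaks of Ndufa13 and Ndufb6 lay outside their own gene, within the 1 kb flank, over Tssk6 in one case and over Topors and Smim27 in the other.

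Many OXPHOS promoters are shared. Another gene began within 1 kb in the opposite direction at 24 of the 78 genes (30.8%), beside 9.61% of all genes. Another gene lay within 1 kb of the peak at 28 of the 54 genes (51.9%), so at these the peak cannot be assigned to the OXPHOS gene alone. The same share over all genes was not counted, so 51.9% is not shown to be particular to OXPHOS genes. Atp5j, which encodes coupling factor 6 of the ATP synthase stalk, shared its promoter and its values in every library with Gabpa, the gene of the GABP alpha subunit. Ndufa11 shared with Vmac, Atp5h with Kctd2, and Uqcrh with Lrrc41.

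Relative signal is given on a pair of scales. The peak percentile places the maximum signal (highest read coverage) of a gene's highest peak among all peaks of the library. The gene percentile places it among the 10498 genes with a peak in all 12 libraries. Over the 54 OXPHOS genes the median of the mean peak percentile was 82.7, beside 86.7 for all 10498 genes, and the median of the mean gene percentile was 38.1, beside 48.6. The peaks had a median of their mean maxima of 9 overlapping reads, beside 9.83, a median mean width of 689 bp, beside 888.5 bp, and 57.5 reads per peak, beside 72.2. A larger share of OXPHOS genes than of all genes thus had a peak in every library. The median height and width of those peaks lay below those of all genes with a peak in every library. The cytoplasmic ribosomal protein genes with such peaks stood likewise, so this was not particular to OXPHOS genes. Their medians were a peak percentile of 82.6, a maximum of 9.29 overlapping reads, a width of 733 bp and 56.3 reads per peak. The part of gene length in height and width was not tested.

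**Figure D2:**
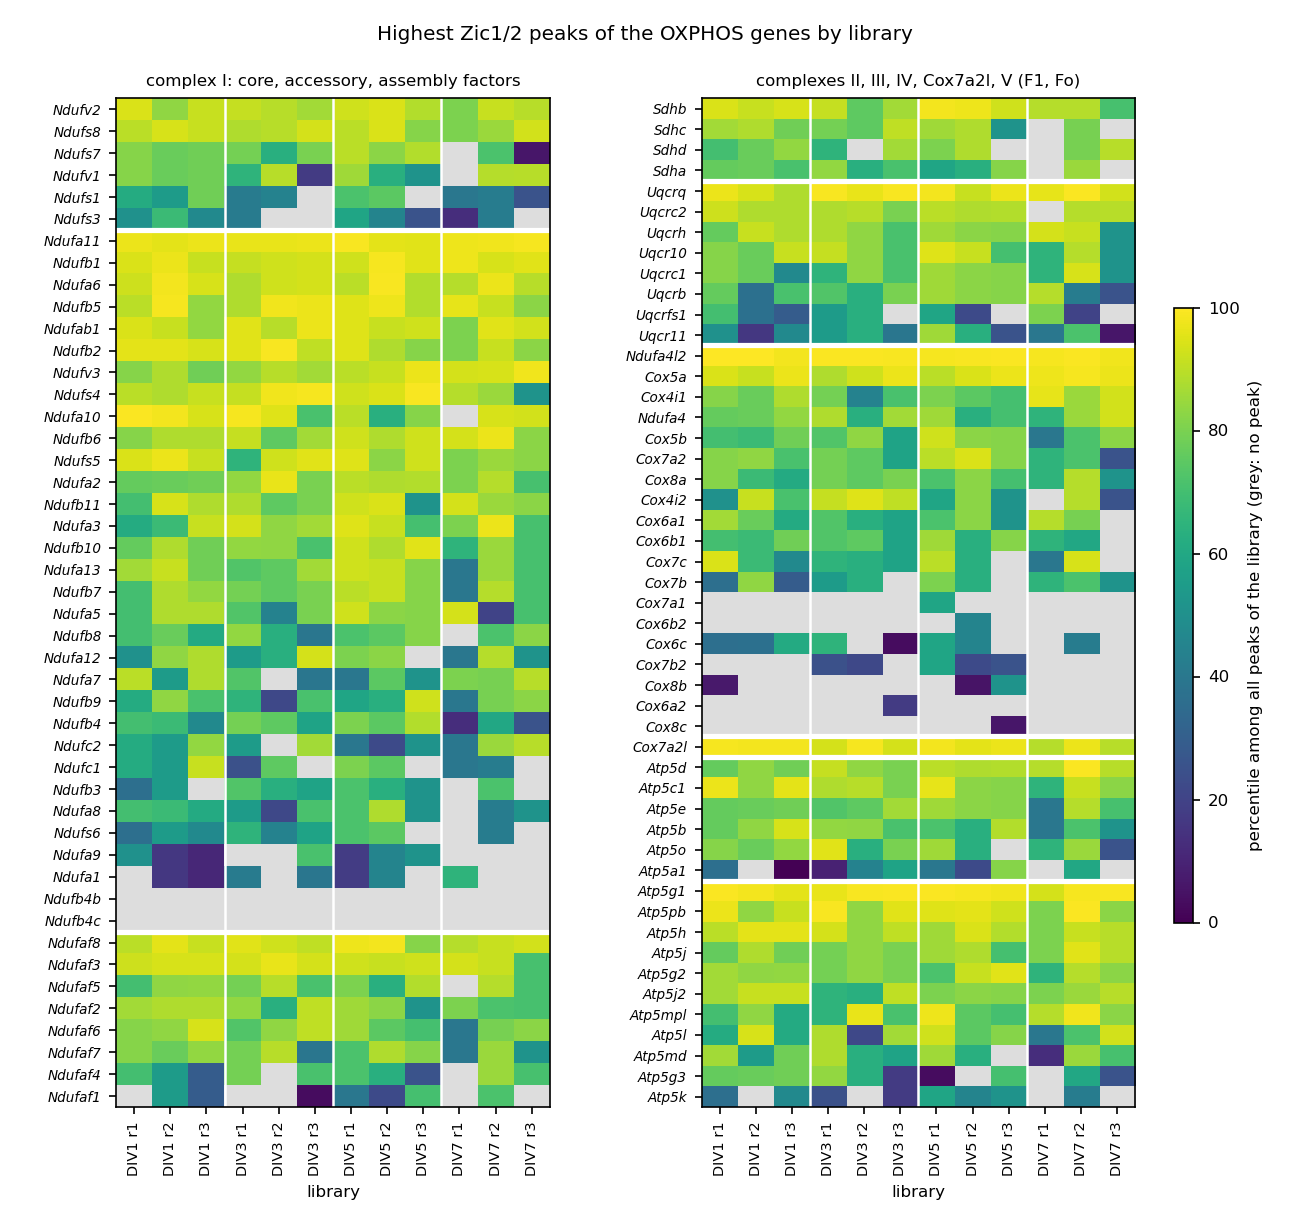
Peak percentile of the highest Zic1/2 peak of the OXPHOS genes (rows, by complex and role; 1 gene is not shown) in each library (columns, by day). Colour runs from 0 to 100 percent of the peaks of that library, and grey marks no peak. Ndufa4l2, Atp5g1 and Ndufa11 are high in every library, and the muscle and testis isoforms of complex IV are mostly grey.

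Complex I, which oxidises NADH, had a peak in all 12 libraries at 19 of 32 accessory subunit genes and 5 of 8 assembly factor genes. Core genes with one in all 12 included Ndufv2 (mean peak percentile 89.4 ± 4.29, SD over 12 libraries) and Ndufs8 (89.2 ± 4.67), which both carry iron-sulphur clusters. Ndufv1, which binds NADH, and Ndufs7 had peaks in 11 libraries, Ndufs1 in 10 and Ndufs3 in 9. The highest accessory gene was Ndufa11, a membrane arm subunit, with peak percentiles of 97.2, 95.9 and 97.2 at DIV1, 96.9, 96.7 and 96.9 at DIV3, 99.1, 96.1 and 95.3 at DIV5, and 97.6, 97.8 and 98.6 at DIV7. Its lowest and highest libraries were both of DIV5, so the days overlapped. Ndufb1 (94.5 ± 2.41), Ndufa6 (92.6 ± 3.86), Ndufb5 (92.2 ± 5.59) and Ndufab1, the mitochondrial acyl carrier protein (91.7 ± 4.99), followed.

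The lowest complex I genes among the 54 were Ndufb4 (61.6 ± 22.8) and Ndufb9 (65.8 ± 19.7). Ndufa7, Ndufa8, Ndufa10, Ndufa12, Ndufb8 and Ndufc2 had peaks in 11 libraries, Ndufb3, Ndufc1 and Ndufs6 in 9, and Ndufa1 and Ndufa9 in 7. No peak was listed at Ndufb4b and Ndufb4c, named as copies of Ndufb4; the sources used here do not say how reads matching several copies were treated. The highest peak of Ndufa10 lay 35520.5 to 35880 bp from the start in 8 of its 11 libraries, beyond the end of the gene, and nearer the start in DIV3 replicate 3, DIV5 replicate 2 and DIV7 replicate 3; the median peak was at chr1:92437554-92438763. Among assembly factors, Ndufaf8 (92.2 ± 4.46) and Ndufaf3 (91.5 ± 6.59) were highest, while Ndufaf5 had a peak in 11 libraries, Ndufaf4 in 10 and Ndufaf1 in 7.

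Complex II links the citric acid cycle to the chain by oxidising succinate, and 1 of its 4 genes had a peak in all 12 libraries. This was Sdhb, the iron-sulphur subunit, with peak percentiles of 94.4, 91.5 and 94.0 at DIV1, 91.2, 75.3 and 86.0 at DIV3, 98.3, 97.3 and 92.7 at DIV5, and 88.9, 88.7 and 71.0 at DIV7. On this scale the DIV3 and DIV7 libraries lay under those of DIV1, and the DIV5 libraries overlapped them. On the gene percentile, the scale of the tests, DIV3 and DIV7 overlapped DIV1 as well. Sdhb had 70.7, 54.3 and 69.2 there at DIV1, and reached 60.2 in DIV3 replicate 1 and 62.7 in DIV7 replicate 1. Its difference from DIV1 did not pass at DIV3 (adjusted p = 0.679, limma) or at DIV7 (adjusted p = 0.576, limma). Sdha, the flavoprotein, and Sdhc, a membrane anchor, had peaks in 10 libraries and lacked them in DIV7 replicates 1 and 3, the 2 with the fewest reads. Sdhd, the other anchor, had peaks in 9.

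Complex III, the cytochrome bc1 complex, had a peak in all 12 libraries at 6 of 8 genes. Uqcrq, which encodes a small subunit, was the highest, at 95.8 ± 3.44, but its peak also overlaps Gdf9. Uqcr11, another small subunit, was the lowest of the 54 OXPHOS genes. Its peak percentiles were 50.5, 16.3 and 47.5 at DIV1, 55.0, 62.9 and 39.2 at DIV3, 85.8, 62.9 and 25.6 at DIV5, and 39.6, 71.7 and 5.95 at DIV7. They spanned most of the scale within DIV5 and within DIV7 alone, and the maxima behind them were 3 to 9 overlapping reads. Uqcrb had 67.2 ± 21.1. Uqcrc2, a core protein, had a peak in 11 libraries, and Uqcrfs1, the Rieske iron-sulphur protein, in 9.

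Complex IV, cytochrome c oxidase, had a peak in all 12 libraries at 7 of 19 genes, which include the tissue-restricted isoforms described below. With these counted, complex IV had the smallest share of the proton-pumping complexes. Several of its subunits exist as a broadly used isoform and an isoform known from muscle, testis or hypoxic tissue, and at 6 of 8 such pairs the restricted isoform had a peak in 5 libraries or fewer. Among the muscle isoforms, Cox6a2 and Cox7a1 had a peak in 1 library and Cox8b in 3, against 11 libraries at Cox6a1 and 12 at Cox7a2 and at Cox8a. Among the testis isoforms, Cox6b2 and Cox8c had a peak in 1 library and Cox7b2 in 5, against 11 at Cox6b1, 12 at Cox8a and 10 at Cox7b. The peak of Cox7a1 came from DIV5 replicate 1 and lay 2657 bp from the start, beyond the end of the gene of 1860 bp and within 1 kb of Capns1. The peaks of Cox7b2 were scattered inside its span of 105383 bp, 31971 to 89337 bp from the start.

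The other 2 restricted isoforms did not follow this division. Cox4i2, the isoform of lung and low oxygen, had a peak in 11 libraries, against 12 at Cox4i1, and its peak lay within 1 kb of Bcl2l1. Ndufa4l2, a hypoxia-induced relative of Ndufa4, had a peak in all 12, as did Ndufa4. Ndufa4l2 had the highest relative signal of all OXPHOS genes, with peak percentiles of 99.9, 99.8 and 98.2 at DIV1, 99.5, 99.5 and 99.0 at DIV3, 98.8, 99.1 and 99.4 at DIV5, and 98.8, 99.5 and 98.0 at DIV7, against a mean of 78.1 ± 10.5 at Ndufa4. The lowest value of Ndufa4l2 was 97.99, in DIV7 replicate 3. Its peak also lies over Stac3, an adaptor of muscle excitation-contraction coupling, at chr10:127508782-127510515 (median start and end), so it cannot be assigned to either gene. Cox5a (94.6 ± 3.404) and Cox5b (73.5 ± 14.0) also had peaks in all 12 libraries, Cox7c in 10 and Cox6c in 8.

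**Figure D3:**
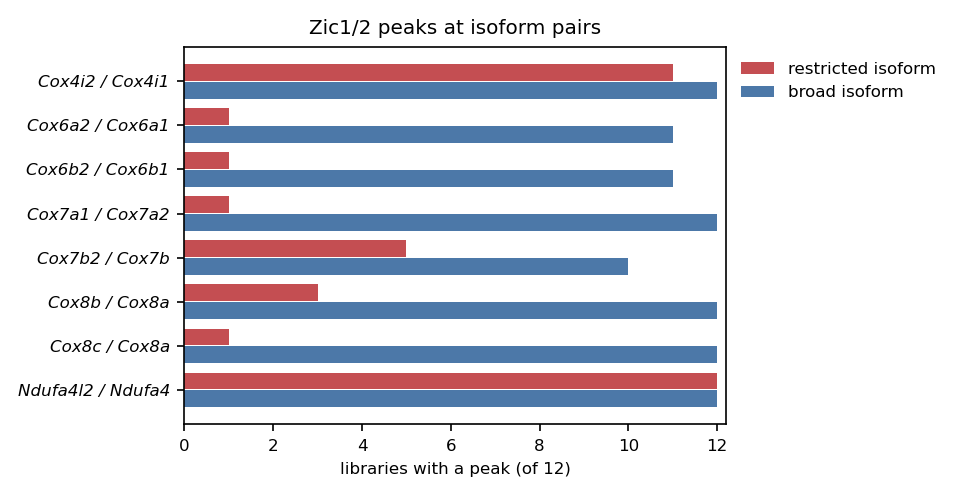
Libraries with a Zic1/2 peak (of 12) for isoform pairs of complex IV, with the tissue-restricted isoform above the broad one in each pair. Of the 8 pairs drawn, Cox4i2 with 11 libraries and Ndufa4l2 with 12 are the restricted isoforms with more than 5.

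Cox7a2l, also known as SCAF1, joins complexes III and IV into supercomplexes. It had peak percentiles of 98.7, 98.1 and 98.2 at DIV1, 93.7, 98.5 and 93.4 at DIV3, 98.3, 96.1 and 97.0 at DIV5, and 88.9, 96.9 and 89.2 at DIV7. The 3 DIV7 values lay under the 3 DIV1 values, but its trend with day did not pass (adjusted p = 0.405, limma).

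Complex V had a peak in all 12 libraries at 12 of 17 genes, 4 of 6 in the catalytic F1 part, with Atp5o counted there, and 8 of 11 in the membrane-bound Fo part and the rest of the peripheral stalk. The 3 genes for the same c subunit of the rotor ring differed widely. Atp5g1 had peak percentiles of 99.5, 98.1 and 95.9 at DIV1, 96.9, 99.0 and 99.5 at DIV3, 99.3, 98.7 and 97.9 at DIV5, and 93.7, 98.5 and 98.9 at DIV7. Its lowest value was that of DIV7 replicate 1. Atp5g1 had no other gene within 1 kb of its peak. Atp5g2 had 82.6 ± 8.26, and Atp5g3 had a peak in 10 libraries, with 55.6 ± 29.1 over these. The catalytic beta subunit gene Atp5b had 73.2 ± 15.7, and the alpha subunit gene Atp5a1 had a peak in 9 libraries. Of the stalk genes, Atp5pb had 91.3 ± 6.94 and Atp5h 89.9 ± 4.85, while Atp5l, which encodes subunit g of the membrane part, was the lowest of complex V among the 54, with 72.2 ± 22.8. Atp5o, which joins the stalk to F1, and Atp5md had peaks in 11 and Atp5k in 8.

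**Figure D4:**
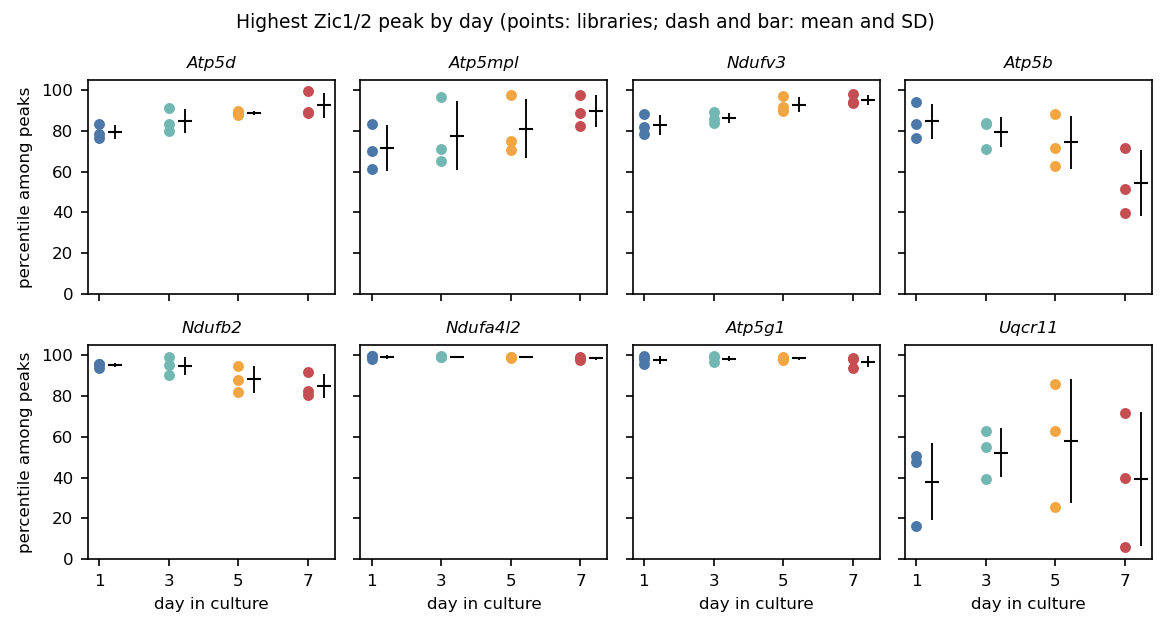
Peak percentile of the highest Zic1/2 peak against the day in culture for 8 OXPHOS genes, the 5 with the smallest p for a trend, the 2 highest and the lowest. Points are libraries, and the dash and bar beside them are the mean and SD over the 3 libraries of a day. The DIV7 points lie above the DIV1 points for Ndufv3 and Atp5d and below them for Atp5b and Ndufb2, and Ndufa4l2 and Atp5g1 stay above 93 throughout.

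To ask how binding changes as the neurons mature, the gene percentiles were turned into normal scores and fitted against the day with limma. Ndufv3 and Atp5d had the smallest p-values among the OXPHOS genes, both with a positive slope, but no OXPHOS gene passed the threshold. Over all 10498 genes 68 passed an adjusted p of 0.05 (0.648%; limma, Benjamini-Hochberg), 21 with a positive and 47 with a negative slope (30 and 37 when the log2 maximum signal, centred in each library, took the place of ranks). Of the 54 OXPHOS genes 0 passed, and 5 had an unadjusted p under 0.05 (9.26%, beside 12.6% of all genes). The median slope was 0.0116 normal score units per day at OXPHOS genes, positive at 30 of 54, and 0.00156 over all genes.

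Ndufv3, an accessory subunit of the NADH-oxidising module, had gene percentiles of 29.4, 41.2 and 20.8 at DIV1, 37.0, 53.0 and 40.5 at DIV3, 43.0, 58.6 and 85.8 at DIV5, and 77.4, 63.5 and 91.7 at DIV7. The 3 DIV7 libraries lay above the 3 DIV1 libraries, without overlap. Its slope was 0.23 ± 0.06 (SE) normal score units per day (adjusted p = 0.0865, limma). The highest peak lay 93.5, 693.5 and 1964 bp from the start in the DIV1 libraries. In the later libraries it lay between -340 and 303 bp, so the slope compares in part different peaks of the gene. The maxima were 8, 12 and 12 overlapping reads at DIV7 and 11, 10 and 9 at DIV1, so the difference is one of rank and not of coverage, in libraries with fewer reads at DIV7. Whole merged peak regions were also fitted in place of genes. The region at the start of Ndufv3, chr17:31519493-31521328, also touches Wdr4. It was 1 of 251 among 12276 regions to pass (2.04%, slope 0.25 ± 0.06, adjusted p = 0.0486, limma). It was the sole one to pass among 56 regions at OXPHOS genes (1.79%). With the reads in peaks as a covariate the gene's slope was 0.14, with an adjusted p of 0.709 (limma).

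Atp5d, the delta subunit of the F1 central stalk, had gene percentiles of 19.4, 27.5 and 20.8 at DIV1, 60.2, 38.5 and 25.8 at DIV3, 43.0, 45.1 and 49.9 at DIV5, and 62.7, 97.4 and 53.4 at DIV7. Again the DIV7 and DIV1 libraries did not overlap. The slope was 0.24 ± 0.07 units per day (adjusted p = 0.110, limma), and it was 0.15 without DIV7 replicate 2 (adjusted p = 0.293), the library with the highest value. In that library the peak was 4177 bp wide and held 392 reads, against 619 and 642 bp and 33 and 39 reads in the other 2 of DIV7. It also lay at another place, 6856.5 bp from the start, while the highest peaks of the other 11 libraries lay between -3551 and 159 bp, so the slope compares different peaks of the gene. With 5 kb of flank in place of 1 kb the slope was 0.02. Fitted as merged regions, the one over the start, chr10:80140734-80143194, had a slope of 0.16 ± 0.05 (adjusted p = 0.0936, limma). The region before it had 0.15 ± 0.06 (adjusted p = 0.166, limma) and the one after it 0.01 ± 0.05 (adjusted p = 0.967, limma). None of these passed.

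Atp5mpl, a small proteolipid of ATP synthase, had the next slope, 0.24 ± 0.09 (adjusted p = 0.253, limma), with gene percentiles of 11.6, 27.5 and 5.71 at DIV1, 8.86, 84.5 and 13.7 at DIV3, 84.9, 17.96 and 17.99 at DIV5, and 62.7, 86.8 and 37.4 at DIV7. DIV7 lay above DIV1, but single libraries of DIV3 and DIV5 stood near the highest of DIV7 while the others lay near DIV1. The steepest negative slopes belonged to Atp5b and to Ndufb2, a complex I membrane arm subunit. Atp5b had gene percentiles of 9.34, 8.95 and 9.21 at DIV7 and 19.4, 27.5 and 69.2 at DIV1 (slope -0.17 ± 0.07, adjusted p = 0.284, limma). Ndufb2 had 44.0, 52.5 and 37.4 at DIV7 and 78.3, 75.7 and 69.2 at DIV1 (slope -0.17 ± 0.07, adjusted p = 0.290, limma). For both genes DIV7 lay under DIV1 without overlap, yet among 10498 genes slopes of this size did not pass. Ndufv3, Atp5d, Atp5mpl, Atp5b, Ndufb2 and Cox7a2l were among the 10 largest slopes on these same values, so the lack of overlap adds no support. Ties limit these ranks, since Atp5d, Atp5mpl and Cox7a2l stand at the same 62.7 in DIV7 replicate 1 with 7 overlapping reads each.

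The other slopes among the 10 largest were 0.14 ± 0.08 at Cox4i1, 0.13 ± 0.08 at Ndufa3 and 0.13 ± 0.06 at Ndufb6, and -0.13 ± 0.07 at Ndufs5 and -0.13 ± 0.06 at Cox7a2l, all in normal score units per day with SE. Their adjusted p-values ran from 0.398 to 0.548 (limma). The remaining genes had smaller slopes in both directions, and no complex had its tested members all on one side, apart from complex II with Sdhb alone.

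**Figure D5:**
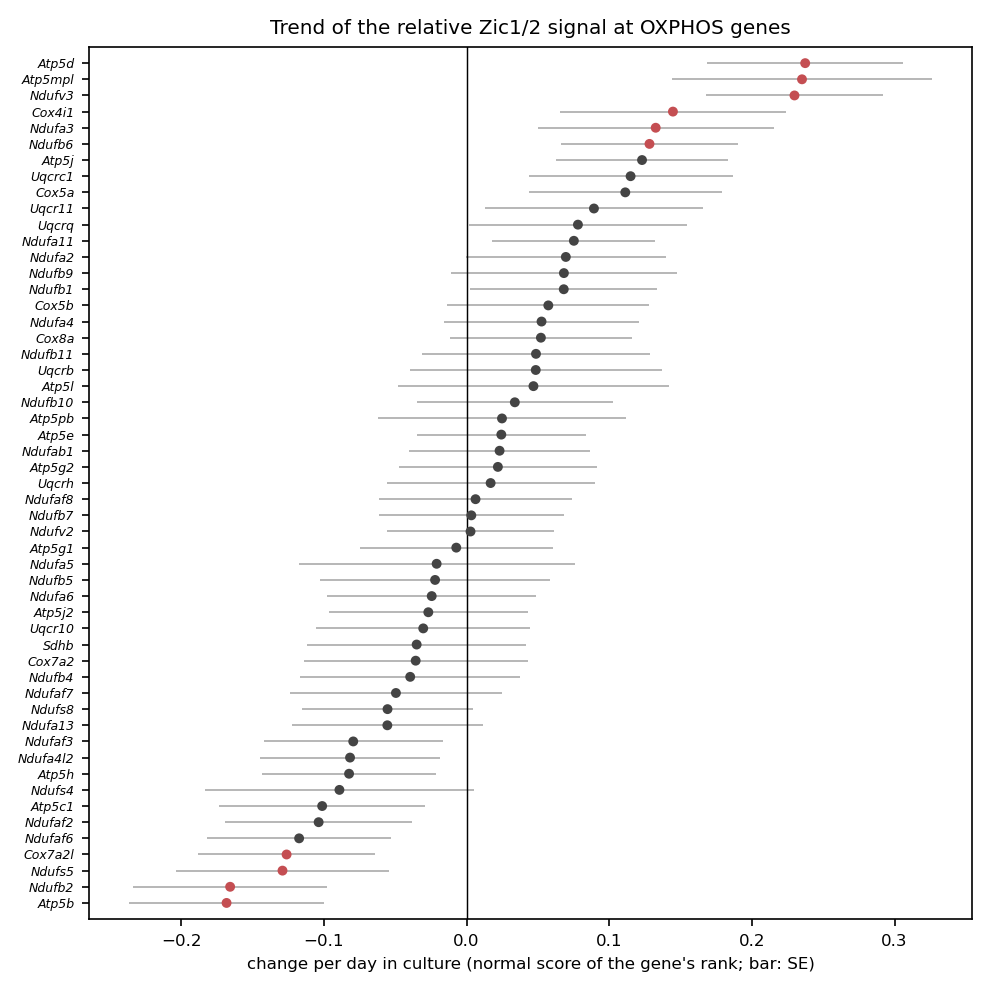
Slope of the relative Zic1/2 signal per day in culture (normal score of the rank of the gene among 10498 genes) for OXPHOS genes with a peak in all 12 libraries (1 of the 54 is not shown), with SE from limma as bars. Red points are the 10 largest slopes in size. Slopes run from -0.17 at Atp5b to 0.24 at Atp5d, and none passed the adjusted threshold.

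The ends of the time course gave the same outcome when compared directly. Between DIV7 and DIV1, 66 of all genes passed (0.629%), 28 of them higher at DIV7, and 0 of the 54 OXPHOS genes did (limma, Benjamini-Hochberg). An unadjusted p under 0.05 was found at 6 OXPHOS genes (11.1%, beside 12.6% of all genes). Atp5d had the smallest p, with a difference of 1.54 ± 0.44 normal score units (adjusted p = 0.10). Between DIV3 and DIV1, the days on either side of cytosine arabinoside, 31 genes passed (0.295%) and 0 OXPHOS genes did. Here 3 OXPHOS genes had an unadjusted p under 0.05 (5.56%, beside 9.32% of all genes). Uqcrq had the smallest p there (1.07 ± 0.45, adjusted p = 0.461). Cytosine arabinoside and 2 further days of culture cannot be told apart in this design.

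The total signal summed over all peaks of a gene, which counts its reads over their whole width, is a second measure of the same peaks. On it 826 of the 10498 genes passed for the trend (7.87%), against 68 on the maximum signal, and 3 of the 54 OXPHOS genes did (5.56%): Ndufa3, Uqcrq and Atp5b. Between DIV7 and DIV1, 796 genes passed (7.58%), and again 3 OXPHOS genes, Ndufa3, Uqcrq and Ndufb5. Both shares of OXPHOS genes lay below that of all genes. The summed signal was not refitted with reads in peaks as a covariate, with a read length term, or with libraries left out.

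Ndufa3, an accessory subunit of complex I, stood low at DIV1 on this measure. Its gene percentiles of the summed signal were 1.91, 1.41 and 3.99 at DIV1, 17.3, 16.7 and 6.48 at DIV3, 12.1, 29.2 and 6.12 at DIV5, and 36.0, 27.3 and 28.7 at DIV7 (slope 0.23 ± 0.04, adjusted p = 0.00877, limma). DIV7 lay above DIV1 in every library, and DIV3 and DIV5 between them or overlapping DIV7. The reads behind these ranks, summed over its peaks, were 30, 85 and 43 at DIV7 and 38, 26 and 40 at DIV1, which overlap. In its highest peak alone Ndufa3 had 20, 76 and 34 reads at DIV7 and 38, 15 and 40 at DIV1. The median gene had 21, 86 and 39 reads in its highest peak at DIV7 and 114, 86 and 92 at DIV1. The call is on the rank, and the reads themselves were not tested. Uqcrq had 76.4, 60.2 and 55.3 at DIV7 and 29.5, 39.3 and 39.4 at DIV1 (slope 0.11 ± 0.03, adjusted p = 0.0478, limma). Atp5b had 9.78, 19.5 and 3.19 at DIV7 and 41.7, 50.4 and 25.2 at DIV1 (slope -0.16 ± 0.05, adjusted p = 0.0484, limma). Ndufb5, an accessory membrane arm subunit with a Zic core just after its start, had 21.9, 16.4 and 35.6 at DIV7 and 54.4, 59.5 and 51.9 at DIV1 (difference -0.84 ± 0.20 normal score units, adjusted p = 0.0302, limma). In all 4 genes the DIV7 and DIV1 libraries did not overlap. These genes were picked by tests on the same values, so this adds no support. The share of all genes without such overlap was not counted. The peak of Uqcrq also overlaps Gdf9, that of Ndufa3 lies within 1 kb of Oscar, and that of Ndufb5 lies at the promoter it shares with Mrpl47.

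The widest peaks belonged to Ndufa4l2 (mean 2718 bp), Atp5d (1617 bp), Atp5h (1463 bp), Ndufa11 (1442 bp) and the complex I assembly factor Ndufaf8 (1289 bp). Widths were compared between days as ranks, as for the signal. The narrowest peaks stood in the 2 libraries with the fewest reads, and the median width over the 54 genes was 355.5, 788.5 and 470 bp in the DIV7 libraries and 935.5, 862 and 885.5 bp in those of DIV1. Ranked within libraries, 23 of all genes passed for a trend (0.219%) and 0 OXPHOS genes did (limma, Benjamini-Hochberg). An unadjusted p under 0.05 was found at 7 OXPHOS genes (13.0%, beside 12.6% of all genes). Ndufa3 came closest, with a slope of 0.26 ± 0.06 (adjusted p = 0.0878). Its widths were 519, 275 and 451 bp at DIV1, 1020, 269 and 462 bp at DIV3, 568, 868 and 457 bp at DIV5, and 386, 972 and 672 bp at DIV7.

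Uqcrh, the hinge protein of complex III, and Ndufa4l2 had the most negative slopes of width. Uqcrh widths were 2336, 2432 and 2399 bp at DIV1, 2352, 689 and 590 bp at DIV3, 1581, 685 and 611 bp at DIV5, and 192, 726 and 458 bp at DIV7 (slope -0.38 ± 0.09, adjusted p = 0.10, limma). The wide form stood in the 3 DIV1 libraries and in DIV3 replicate 1, which are also 4 of the 6 libraries with 51-base reads and among the 5 with the most reads. Without DIV3 replicate 3 the adjusted p was 0.0460 (limma), where 1 of 54 OXPHOS genes (1.85%) and 16 of 10498 genes (0.152%) passed. Within the 50-base libraries the slope was -0.09 (adjusted p = 0.960, limma). Ndufa4l2 had 4737, 4676 and 4716 bp at DIV1, 5868, 1680 and 1760 bp at DIV3, 2225, 1662 and 1271 bp at DIV5, and 1063, 1529 and 1424 bp at DIV7 (slope -0.26 ± 0.07, adjusted p = 0.136, limma). The same 4 libraries carried its wide peak, and with read length as a term the slopes were -0.30 at Uqcrh (adjusted p = 0.210) and -0.20 at Ndufa4l2 (adjusted p = 0.293).

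Whether a gene had a peak was tested against the day for genes with a peak in 3 to 9 libraries. Of 3594 such genes 0 passed an adjusted p of 0.05 (0.0%; exact conditional trend test, two-sided, Benjamini-Hochberg), and 250 had an unadjusted p under 0.05, of which 175 leaned to earlier days. Of the 14 OXPHOS genes among them 0 passed and 0 had an unadjusted p under 0.05. Ndufs6, an accessory complex I subunit, had a peak in 3, 3, 2 and 1 libraries at DIV1, DIV3, DIV5 and DIV7 (exact p = 0.0909, adjusted 0.566). Ndufa9 had a peak in 3, 1, 3 and 0 (exact p = 0.136, adjusted 0.687), and Cox7b2 in 0, 2, 3 and 0. The libraries with a peak leaned to earlier days in 13 of the 14 OXPHOS genes, beside 54.1% of all genes tested. Without DIV7 replicate 1 the lean was at 7 of 10 OXPHOS genes, beside 51.2% of all genes tested. It was at 5 of 8 without DIV7 replicate 3, beside 58.5%. Without the 3 libraries with the fewest reads it was at 2 of 4, beside 55.1%. Fewer genes could be tested in these settings.

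Other genes of the same pathway, outside the 96, were read in the same way. Assembly factors outside the Nduf names, which build complexes I to V, had a peak in all 12 libraries at 34 of 39 genes, with the highest mean peak percentiles at Atpaf2 (97.9 ± 1.43), an ATP synthase assembly factor, and Lyrm7 (97.4 ± 1.14), which inserts the Rieske protein. Regulators of respiratory genes had one at 14 of 15, led by Esrra (97.3 ± 1.05), a nuclear receptor of mitochondrial genes, and Yy1 (95.9 ± 2.16), while Nrf1 had a peak in 11 libraries. Citric acid cycle genes had one at 12 of 16 and glycolytic genes at 16 of 17. Cycs, the somatic cytochrome c, and Cyc1, cytochrome c1 of complex III, had one in all 12 libraries, while no library had a peak at Cyct, the testis cytochrome c. None of the 78 tested genes of these lists passed for the trend, the DIV7 against DIV1 or DIV3 against DIV1 contrasts or the width.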

How the data were processed

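The 12 peak lists of Zic1/2 CUT&RUN (3 per day at DIV1, DIV3, DIV5 and DIV7) were used as deposited. The submitters' processing notes name mm10, FastQC, Trimmomatic 0.38, STAR 2.7.2b, MACS2 2.1, bedtools 2.25.0 and SEACR 1.3 without their roles. The lists have the form of SEACR stringent lists, called per library; the sources used here do not state the control, the threshold or any removal of duplicates. Each deposited peak carries the authors' total signal (summed coverage) and maximum signal (highest coverage), neither scaled to depth. The total divided by the read length (50 or 51 bases, from the values; the labels state 50) was read as the number of reads.

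Peaks overlapping a protein-coding gene span (RefSeq, GRCm38.p6) plus 1 kb by at least 1 bp were assigned to the gene. Within each library the maximum signals, and separately the widths of the highest peak, of the 10498 genes with a peak in all 12 libraries were ranked and turned into normal scores. With limma 3.58.1 under R 4.3.3, the day entered as a number, and as a group for contrasts, over all 12 libraries. Benjamini-Hochberg adjustment ran over all genes tested, and genes under 0.05 passed. A slope is therefore a change of rank, not of absolute binding. Presence of a peak was tested with an exact conditional trend test. Reads are not independent molecules, since PCR duplicates may remain. Scripts were tested on simulated data. Genes named in the text were those past a threshold, the 10 largest slopes, the 5 highest, 5 lowest and 5 widest, the isoform pairs, complex II, and all with peaks in fewer than 12 libraries; others were chosen after their values were seen. The values of 1 OXPHOS gene are not reported here, though it stays in the counts. The members and lists were chosen with earlier results of these data known. Same-numbered libraries of different days did not deviate together (correlations -0.0385 to 0.119), so the numbers were not used to pair them.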

Additional observations from a re-analysis of the deposited data

How the results depend on the processing

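The count of 54 OXPHOS genes with a peak in all 12 libraries ran from 54 to 62 when each library was left out in turn, with DIV7 replicate 1 giving the 62. It was 31 when peaks above the library's median signal alone were used, and 71 without the 3 libraries with the fewest reads (an alternative added after the data were seen).

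On the maximum signal, 0 OXPHOS genes passed in any contrast with each library left out (limma, Benjamini-Hochberg), with 5 to 9 at an unadjusted p under 0.05 for the trend, 4 to 7 for DIV7 against DIV1 and 1 to 3 for DIV3 against DIV1. These were 9.26% to 16.7%, 7.41% to 13.0% and 1.85% to 5.56% of OXPHOS genes. Over all genes the shares were 11.2% to 12.5%, 10.8% to 12.9% and 7.88% to 10.0%. On the total signal 3 passed for the trend and 3 between DIV7 and DIV1 (each 5.56%, beside 7.87% and 7.58% of all genes). Over merged regions 1 of 56 at OXPHOS genes passed for the trend (Ndufv3, 1.79%, beside 2.04% of all regions). Neither of these measures was refitted with a covariate, a replicate block or a library left out. For the width, 1 of 61 OXPHOS genes passed with 5 kb of flank (Ndufa10, slope -0.34, adjusted p = 0.0330, limma). This was 1.64%, beside 26 of 11500 genes (0.226%). With each library left out 0 to 1 passed for the width. The 1 was Uqcrh without DIV3 replicate 3, of 54 OXPHOS genes (1.85%), beside 16 of 10498 genes (0.152%). Slopes changed sign to 0.0193 at Ndufb2, 0.0238 at Ndufs5 and 0.0233 at Cox7a2l on the total signal, and to -0.0280 at Cox4i1 without the 3 shallowest libraries; the cause was not tested.

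Counts over all genes depended more on the setting. For the trend (68 genes), 3 passed with reads in peaks as a covariate, 8 at gene ends, 32 with a read length term, 107 with a peak in at least 10 libraries, 100 with 5 kb of flank, 0 within the 50-base and 14 within the 51-base libraries, and 3 to 74 with each library left out. For DIV7 against DIV1 (66), DIV3 against DIV1 (31) and the width (23) the depth covariate gave 12, 27 and 0, the read length term 14, 4 and 19, gene ends 26, 0 and 2, and leaving out libraries 10 to 69, 2 to 35 and 0 to 26. With the replicate number as a block, 0 OXPHOS genes passed in any contrast (limma, with 6, 7, 3 and 7 at an unadjusted p under 0.05, in the order that follows), and over all genes 45 passed for the trend, 74 for DIV7 against DIV1, 31 for DIV3 against DIV1 and 7 for the width. Those under the unadjusted p were 11.1%, 13.0%, 5.56% and 13.0% of OXPHOS genes, beside 12.3%, 12.6%, 9.57% and 12.1% of all genes. Of 18 same-number pairs 1 correlated above 0.1.

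Depth limits these results: a typical OXPHOS peak rested on 57.5 reads and a maximum of 9, so ranks tie in steps, and DIV7 held the 2 shallowest libraries.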
